A study of Rattus norvegicus with 12 samples.

Results

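The genes of the Wnt pathway were compared between F111 colony cells and adherent F111 cells: 48 listed genes for ligands, receptors, antagonists and intracellular effectors. A gene entered when a probe set carried its symbol and no other in the annotation of the array. By this rule 41 of the 48 genes were measured, of 14217 genes measured in all. They were 12 ligands, R-spondins and ligand-processing enzymes, 10 receptors, 7 antagonists and 12 intracellular effectors, with 71 probe sets between them. The ligands Wnt10b and Rspo2, the receptors Fzd7, Fzd9, Ror1 and Ror2 and the antagonist Dkk1 were not analysed here. Each gene stands for its brightest probe set, and other probe sets are described where a call, a pass by the p-value or the direction differs.

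F111 is a fibroblast cell line from the Fischer strain of rat. Colony cells were F111 cells that had been kept in suspension for 16 h (NA16 cells), were then placed in soft agar for 7 days, and were freed from the agar and allowed to attach briefly before use. A16 cells were F111 cells grown on plastic for 16 h, and they are the control of the study. Both groups were cultured in the same medium with fetal calf serum, and no gene was altered by design in either. The study reports chromosome abnormalities in both groups. A translocation seen in a minority of its A16 cells was present in every colony cell that it karyotyped. Time in culture, time attached before use, the passage through suspension, the agar and the selection of cells that form colonies all differed together. They cannot be told apart as sources of a difference between the groups. Nor can the chromosome differences be told apart from them. Each group had 3 arrays, of biological replicate 1, of technical replicate 2 and of biological replicate 2, and values by array are given in that order. The technical array was averaged with biological replicate 1 on the log2 scale, so that n = 2 cultures a group in the main test. Alternatives that use the arrays otherwise are named where they are given. The small number of cultures limits the precision of each value.

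In Colony cells the messages of 2 Frizzled receptors were far lower than in A16 cells. Fzd2 was 8.32-fold lower and Fzd4 6.71-fold lower. The ligand Wnt4 was 3.75-fold lower, the transducer Dvl2 2.58-fold lower and the R-spondin receptor Lgr4 2.09-fold lower. The transcription factor Tcf7 was 2.49-fold higher in Colony cells, and no other of the 41 genes was called higher. The other 35 genes did not pass the thresholds for a call.

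Wnt proteins are secreted, lipid-modified ligands that bind Frizzled receptors together with the co-receptors Lrp5 and Lrp6. Without ligand, a complex of Axin, Apc and the kinase Gsk3b marks β-catenin, the product of Ctnnb1, for degradation. With ligand, Dishevelled proteins recruit Axin to the membrane, and β-catenin builds up and acts with the factors Tcf7, Lef1, Tcf7l1 and Tcf7l2 in the nucleus. R-spondins bind Lgr receptors and raise the number of Frizzled receptors at the surface, while Dkk proteins, secreted Frizzled-related proteins and Wif1 work outside the cell as inhibitors. In fibroblasts the pathway is known for its part in proliferation, matrix production and wound repair.

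The RMA medians of the arrays lay between 97.6 and 101, and the SD of the log2 differences between 2 arrays was 0.22 to 0.33 within Colony, 0.17 to 0.30 within A16 and 0.67 to 0.76 between groups. The A16 array of biological replicate 2 stood 0.30 from each of the other A16 arrays, which differed by 0.17. The Colony array of biological replicate 2 carries a source label that names tumour formation where its other labels name colonies, and it was kept as Colony. Without replicate 2 of Colony, 1 Wnt gene was called higher and 6 lower. All 12 fibroblast markers looked for were measured, and 4 of them (Col1a1, Col3a1, Thy1 and Fn1) were called lower in Colony cells. Sums over the list were 69215 to 72687 on Colony arrays and 93773 to 104705 on A16 arrays. Pdgfra went the other way without a call, with 1890, 2071 and 1886 units on Colony arrays and 1304, 1401 and 1294 on A16 arrays. Vim and S100a4 also read higher on every Colony array, by 0.16 each on the log2 scale and without a call. The fibroblast markers Dcn and Lum were under the array median everywhere. Of 9 leukocyte markers, only Csf1r was called, higher in Colony cells (sums over the list 1709 to 1788 on Colony arrays, 1298 to 1503 on A16 arrays). Cd14 went the other way without a call, with 534, 664 and 697 units on Colony arrays and 1020, 1002 and 891 on A16 arrays. Of the 9, 6 were under the median on every array, the leukocyte marker Ptprc among them. Of 7 epithelial markers, Krt8 was higher (sums 3186 to 3937 on Colony arrays, 935 to 1042 on A16 arrays) and the other 6 were under the median on every array. Of these 6, Cdh1 also read higher on every Colony array without a call, with 46.1, 44.9 and 49.0 units against 30.6, 29.6 and 26.5 on A16 arrays. Of 8 muscle markers, Acta2 and Tagln were lower (sums 947 to 1002 on Colony arrays, 5723 to 6849 on A16 arrays). All 5 endothelial and all 6 bone and cartilage markers measured were under the median on every array, and of 6 adipocyte markers Cfd was lower (sums 247 to 269 on Colony arrays, 374 to 392 on A16 arrays). The part of these markers in the Wnt values was not tested, and in such bulk RNA fewer cells of a type and less RNA per cell cannot be told apart.

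A gene was called when limma gave an adjusted p under 0.05 and the fold change was over 2. By this rule 6 of the 41 Wnt genes were called (14.6%), against 9.12% of all genes measured. Of them 5 were lower in Colony cells, against 4.75% of all genes, and 1 was higher, against 4.36% of all genes. With the p-value alone 13 Wnt genes passed, beside 23.7% of all genes, and these were 4 higher (12.9% of all genes) and 9 lower (10.8%). The 3 Colony arrays lay wholly above or wholly below the 3 A16 arrays for 20 Wnt genes (48.8%), and for 47.6% of all genes. They lay above for 9 Wnt genes, beside 26.7% of all genes, and below for 11, beside 20.9%. The median log2 fold change of the 41 genes was 0.05, the same as over all genes, and the median size without sign was 0.31 for the Wnt genes and 0.24 for all genes. The plot of levels by array shows each gene in its role.

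**Figure D1:**
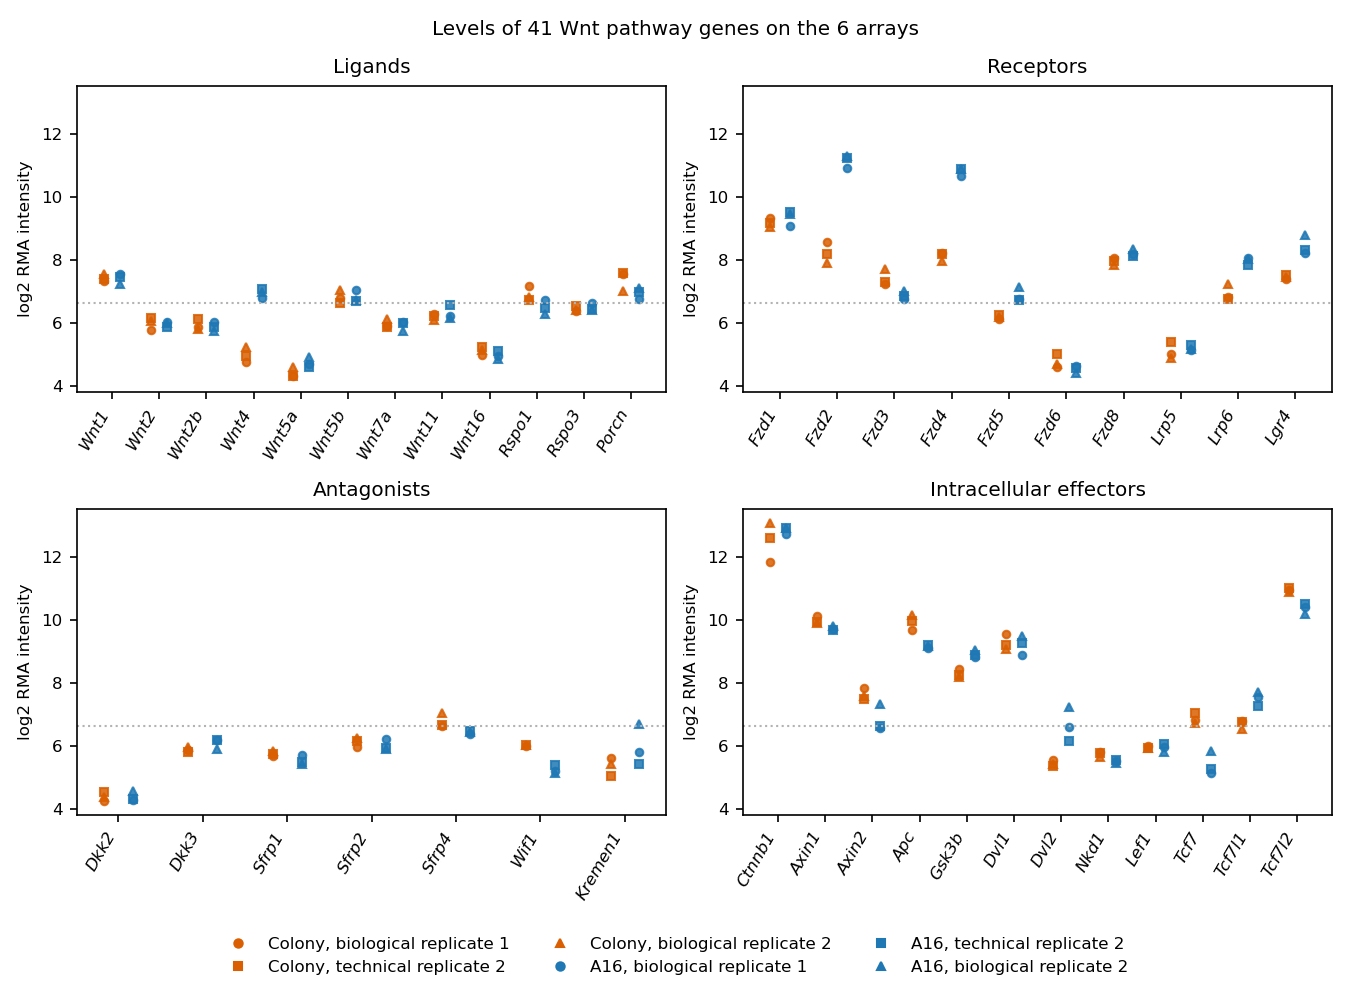
Log2 RMA intensity (vertical axis) of the 41 Wnt pathway genes on the 6 arrays, with Colony in orange left of A16 in blue; the symbols mark the arrays, and the dotted line stands at an intensity of 100, near the array medians of 97.6 to 101. The wide gaps between Colony and A16 are those of Fzd2, Fzd4 and Wnt4.

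Of the 12 genes of the ligand role only Wnt4 was called. Wnt4 is a Wnt protein best known from kidney, gonad and mammary development. It read 27.4, 31.2 and 37.7 RMA units on the Colony arrays, against 110.7, 135 and 127 on the A16 arrays. The Colony arrays were all under their array medians, the A16 arrays were all above theirs, and the groups did not overlap. The log2 fold change was -1.91 ± 0.16 (SE, n = 2 cultures a group, adjusted p = 0.000419). Wnt5a, a ligand usually linked to signalling without β-catenin, was dim on all 6 arrays, with 19.9, 20.2 and 24.5 units on Colony arrays and 25.8, 24.5 and 30.7 on A16 arrays (log2 fold change -0.33, adjusted p = 0.227).

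The other Wnt proteins lay close to no difference. Wnt1, a ligand of the β-catenin branch, read 164, 169 and 191 units on Colony arrays and 187, 177 and 152 on A16 arrays, so that the groups overlapped. Its log2 fold change was 0.10, with a 95% interval of -0.27 to 0.46. The log2 fold changes of Wnt2, Wnt2b, Wnt5b, Wnt7a, Wnt11 and Wnt16 lay between -0.10 (Wnt11) and 0.17 (Wnt16), with the groups overlapping for each. Of the 12 genes in this role, 7 were under the array median on every array, against 31.3% of all genes.

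R-spondins, which strengthen a Wnt signal through Lgr receptors, did not pass the test. Rspo1 read 144, 108 and 114 units on Colony arrays and 108, 90.4 and 79.1 on A16 arrays, with the groups meeting at 108 (log2 fold change 0.43 ± 0.16 SE, adjusted p = 0.100). In PLIER, the other summary of the same arrays, with 16 added before the log, Rspo1 was at 0.05 (adjusted p = 0.845). Rspo3 differed by -0.04 on the log2 scale. Porcn, the enzyme of the endoplasmic reticulum that adds the lipid to Wnt proteins, read 191, 194 and 129 units on Colony arrays and 109, 126 and 138 on A16 arrays. Its difference of 0.31 (adjusted p = 0.363) rested on the first 2 Colony arrays, since the Colony array of biological replicate 2 lay within the A16 values. A second probe set of Porcn differed by -0.13 (adjusted p = 0.708).

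Receptors were the role with the lowest median, -0.55 on the log2 scale. Of the 10 receptors 3 were called lower (4.75% of all genes) and none higher (4.36% of all genes), and with the p-value alone 5 passed, each of them lower (10.8% of all genes). The Colony arrays lay wholly below the A16 arrays for 6 receptors (20.9% of all genes) and wholly above them for 1 (26.7% of all genes).

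Fzd2, a Frizzled receptor present in many mesenchymal cells, read 380, 296 and 239 units on the Colony arrays, against 1947, 2422 and 2552 on the A16 arrays. Its highest Colony array was thus far under its lowest A16 array. The log2 fold change was -3.06 ± 0.19 (SE, n = 2 cultures a group, 95% interval -3.52 to -2.59, adjusted p = 0.000125). Fzd4, a Frizzled receptor that also binds norrin and is known from retinal vessel growth, read 300, 295 and 254 units on Colony arrays, against 1622, 1919 and 1921 on A16 arrays. Again the groups lay well apart, and the arrays of each group lay close together. Its log2 fold change was -2.75 ± 0.14 (SE, adjusted p = 5.89e-05). A dimmer probe set of Fzd4 read 94.4, 82.4 and 86.9 units on Colony arrays and 630, 541 and 1182 on A16 arrays, and was called lower as well (log2 fold change -3.25 ± 0.30 SE, adjusted p = 0.000635).

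The other 5 measured Frizzled genes had smaller fold changes and none was called. Fzd5 read 70.5, 76.6 and 73.6 units on Colony arrays and 108, 106 and 143 on A16 arrays. The groups did not overlap, and Fzd5 passed by its p-value alone (log2 fold change -0.75 ± 0.17 SE, adjusted p = 0.0203). A dimmer probe set of Fzd5 differed by 0.19 (adjusted p = 0.436), and the mean of the 2 probe sets did not pass (-0.28, adjusted p = 0.156). Fzd8 lay lower on every Colony array by a small step (log2 fold change -0.34, adjusted p = 0.154). Fzd1 read 643, 582 and 535 units on Colony arrays and 549, 745 and 708 on A16 arrays, with the groups overlapping (-0.23, 95% interval -0.57 to 0.10). Fzd3, best known from axon guidance and planar polarity, read 153, 158 and 210 units on Colony arrays and 109, 116 and 130 on A16 arrays. It was the only receptor whose Colony arrays all lay above the A16 arrays, without passing the test (0.58 ± 0.18 SE, adjusted p = 0.0619). Fzd6, another Frizzled of planar polarity, was dim on all arrays and differed by 0.25 (adjusted p = 0.281).

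The co-receptors and the R-spondin receptor followed. Lrp6, the co-receptor that Wnt and Frizzled bring into the complex, read 114, 109 and 152 units on Colony arrays and 267, 231 and 264 on A16 arrays. The groups lay apart, and the fold change of 1.97 stopped just short of 2 (log2 fold change -0.98 ± 0.18 SE, adjusted p = 0.00866). Its relative Lrp5 was dim on every array and differed by -0.15 (95% interval -0.52 to 0.21). Lgr4, the receptor through which R-spondins act in many tissues, read 169, 187 and 176 units on Colony arrays and 297, 318 and 445 on A16 arrays. Its Colony arrays were close together and all below the A16 arrays, of which replicate 2 was the highest. Lgr4 was called at a log2 fold change of -1.06 ± 0.19 (SE, adjusted p = 0.00864), just over the fold threshold. Without A16 replicate 2 the log2 fold change of Lgr4 was -0.80 and the call was lost.

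**Figure D2:**
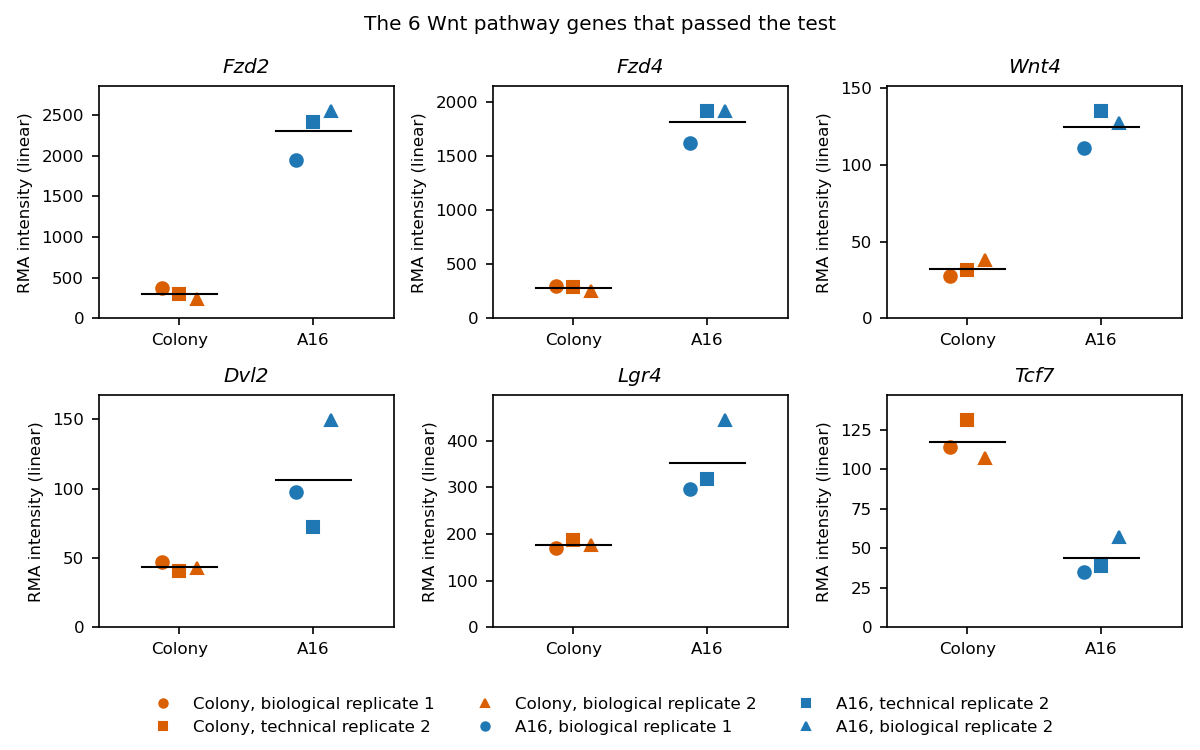
RMA intensity on a linear axis from 0 for the 6 Wnt genes called, with the 3 Colony arrays left of the 3 A16 arrays; the symbols mark the arrays and each line is the mean of the 3 arrays. Colony arrays lay below A16 arrays for Fzd2, Fzd4, Wnt4, Dvl2 and Lgr4 and above them for Tcf7, with no overlap in any panel.

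Among the antagonists none was called. Wif1, a secreted protein that binds Wnt proteins, read 63.9, 64.8 and 64.9 units on Colony arrays and 37.0, 42.0 and 35.5 on A16 arrays. All Colony arrays were higher and lay within a narrow range, although every value was under the array median. Wif1 passed by its p-value alone (log2 fold change 0.79 ± 0.13 SE, adjusted p = 0.00648), and it was 0.29 in the PLIER summary with 16 added before the log (adjusted p = 0.225). Sfrp4, a secreted Frizzled-related protein, read 99.2, 101 and 131 units on Colony arrays and 83.9, 88.1 and 87.4 on A16 arrays, which did not overlap (0.40 ± 0.16 SE, adjusted p = 0.138). In the PLIER summary with 16 added Sfrp4 was at 0.02 (adjusted p = 0.974). Kremen1, a membrane protein that binds Dkk proteins and helps to remove Lrp6 from the surface, read 48.7, 33.3 and 43.1 units on Colony arrays and 55.8, 43.4 and 103 on A16 arrays. The groups overlapped, and the log2 fold change of -0.77 ± 0.32 (SE, adjusted p = 0.138) rested on A16 replicate 2, without which it was -0.24. In the PLIER summary with 16 added Kremen1 was at -0.04 (adjusted p = 0.920). Sfrp1, Sfrp2, Dkk2 and Dkk3 were dim on every array, with log2 fold changes between -0.15 (Dkk3) and 0.27 (Sfrp1) and overlapping groups. No other probe set of these genes was called either.

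**Figure D3:**
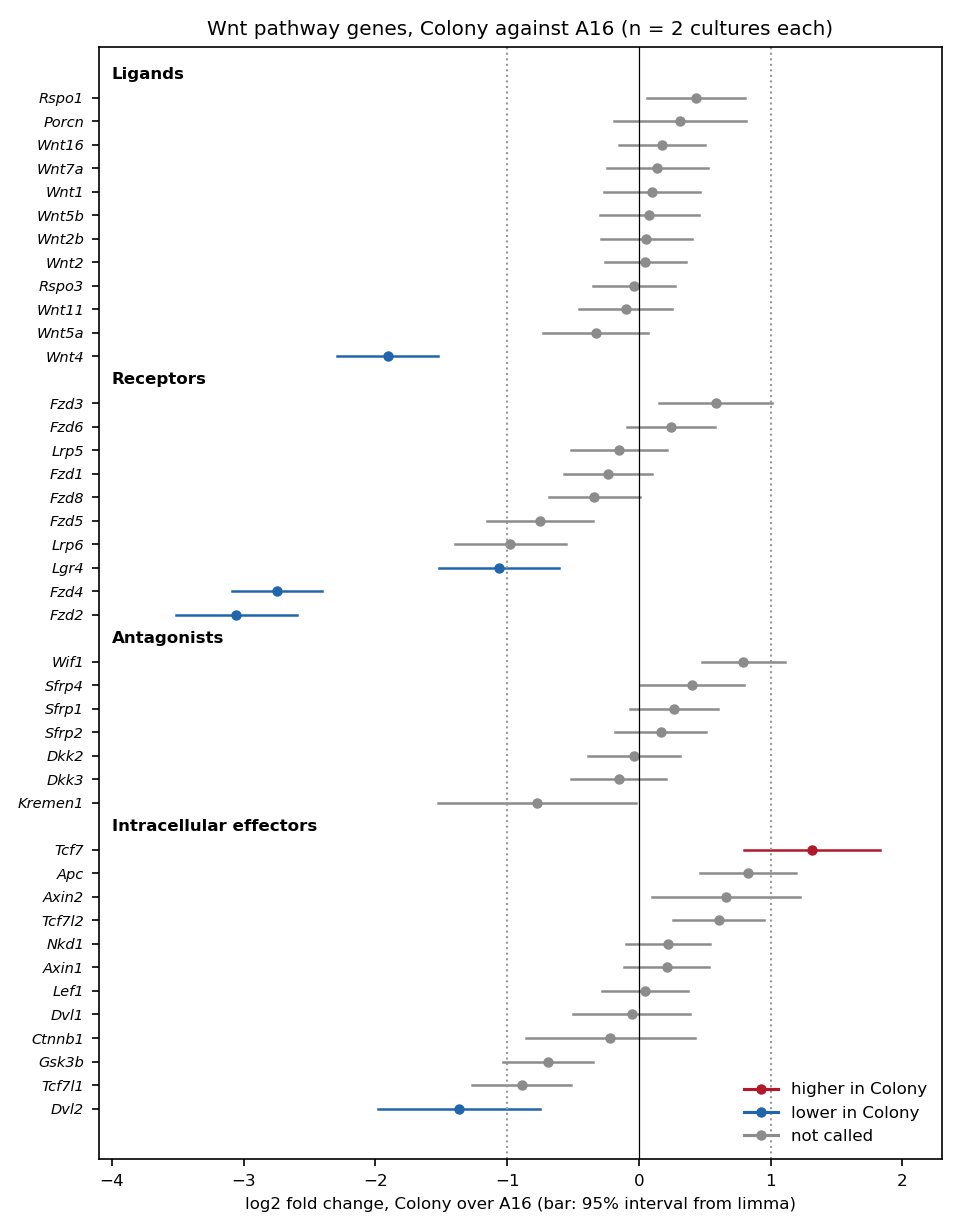
Log2 fold change of Colony over A16 (horizontal axis) for each of the 41 Wnt genes, grouped by role, with the 95% interval from limma as a bar and dotted lines at a fold change of 2. The called genes are Wnt4, Fzd2, Fzd4, Lgr4 and Dvl2 on the lower side and Tcf7 on the higher side.

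Of the 12 intracellular effectors 1 was called higher and 1 lower, beside 4.36% and 4.75% of all genes. With the p-value alone 3 were higher and 3 lower, beside 12.9% and 10.8% of all genes. The Colony arrays lay wholly above the A16 arrays for 6 of them and wholly below for 3, beside 26.7% and 20.9% of all genes.

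Of the Dishevelled genes, which carry the signal from Frizzled to Axin, Dvl2 read 46.9, 40.8 and 43.2 units on Colony arrays and 97.9, 72.1 and 150 on A16 arrays. The Colony arrays were all lower, and the A16 arrays were spread widely. Dvl2 was under the array median on 5 of the 6 arrays, all but A16 replicate 2. Dvl2 was called at a log2 fold change of -1.37 ± 0.26 (SE, adjusted p = 0.0105). Without A16 replicate 2 it was -0.95, under the fold threshold, with an adjusted p of 0.00692. Dvl1 read 756, 590 and 537 units on Colony arrays and 477, 617 and 715 on A16 arrays, with full overlap (-0.06, 95% interval -0.50 to 0.39). Nkd1, which binds Dishevelled and restrains the signal, was dim on all arrays, with 55.7, 54.4 and 50.3 units on Colony arrays and 46.1, 47.1 and 43.7 on A16 arrays (0.22, adjusted p = 0.305).

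The genes of the degradation complex differed in direction. Apc, its large scaffold protein, read 826, 1002 and 1143 units on Colony arrays and 559, 592 and 575 on A16 arrays, and passed by its p-value alone (log2 fold change 0.83 ± 0.15 SE, adjusted p = 0.00985). Gsk3b, the kinase that phosphorylates β-catenin, was lower on each Colony array, with 346, 303 and 289 units against 451, 469 and 531 on A16 arrays (-0.69 ± 0.14 SE, adjusted p = 0.0151). Axin1, the scaffold that limits assembly of the complex, read 1116, 989 and 948 units on Colony arrays and 833, 818 and 901 on A16 arrays. Its groups did not overlap but were close, and it did not pass (0.21, adjusted p = 0.340). Axin2, a close relative of Axin1 that β-catenin itself induces, read 229, 180 and 192 units on Colony arrays, against 94.9, 98.9 and 161 on A16 arrays. Every Colony array was higher, and A16 replicate 2 lay between the other A16 arrays and the Colony arrays. Its log2 fold change of 0.66 ± 0.24 (SE, adjusted p = 0.0942) did not pass, and without A16 replicate 2 it was 1.03 with an adjusted p of 0.00472, past both thresholds.

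The nuclear factors that work with β-catenin differed from one another. Tcf7, also called TCF-1 and known from T cell development, read 114, 131 and 107 units on Colony arrays, against 35.3, 38.9 and 57.1 on A16 arrays. It was above the array median on all Colony arrays and under it on all A16 arrays. The log2 fold change was 1.31 ± 0.22 (SE, n = 2 cultures a group, adjusted p = 0.00623). In the PLIER summary with 16 added, the log2 fold change of Tcf7 was 0.97 with an adjusted p of 0.00787, under the fold threshold. Tcf7l1, mostly a repressor in the absence of a signal, read 111.5, 109.6 and 94.0 units on Colony arrays and 190, 156 and 208 on A16 arrays and passed by its p-value alone (-0.89 ± 0.16 SE, adjusted p = 0.00834). In the PLIER summary with 16 added Tcf7l1 was at -0.34 and did not pass (adjusted p = 0.132). Tcf7l2, the main partner of β-catenin in many epithelia, read 1965, 2067 and 1887 units on Colony arrays and 1358, 1445 and 1174 on A16 arrays and also passed by its p-value alone, upwards (0.61 ± 0.15 SE, adjusted p = 0.0257). Lef1 was dim on every array, and its groups overlapped (0.05, 95% interval -0.28 to 0.37).

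Promoters of the Wnt genes were searched for the letters CTTTGAT and CTTTGTT, forms of the site that Tcf and Lef factors bind, on both strands of 300 bases from 250 before to 50 after the annotated start. The 2 forms differ in 1 letter, so that no stretch is a match to both. Sequences came from RefSeq, assembly GRCr8, and 29 of the 41 genes were matched. CTTTGAT was found in 3 of the 29 promoters (10.3%) and in 3.63% of all 33469 promoters, and CTTTGTT in 0 of the 29 and in 5.98% of all. Either form was found in 3 of the 29 (10.3%) and in 9.39% of all, so that the 2 shares were close. The 3 promoters are those of Tcf7, Axin2 and Nkd1, and they are shown as the only matches. All 3 genes are known as targets of the pathway. By its brightest probe set each read higher on every Colony array, as 26.7% of all genes did, and only Tcf7 passed the test. Nkd1 was dim on all arrays, with a log2 fold change of 0.22. A link between the match and the levels was not tested. The windows are chr10:36954230-36954529 on the minus strand for Tcf7, chr10:94398535-94398834 on the plus strand for Axin2 and chr19:34722797-34723096 on the minus strand for Nkd1. Each is printed from its 5′ end on the strand of the gene, with CTTTGAT in capitals.
Tcf7: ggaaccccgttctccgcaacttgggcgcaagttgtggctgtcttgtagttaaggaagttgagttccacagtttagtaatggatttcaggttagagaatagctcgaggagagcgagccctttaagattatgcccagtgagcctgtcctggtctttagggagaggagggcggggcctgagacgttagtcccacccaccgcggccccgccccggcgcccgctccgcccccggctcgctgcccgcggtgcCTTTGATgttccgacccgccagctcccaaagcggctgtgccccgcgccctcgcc
Axin2: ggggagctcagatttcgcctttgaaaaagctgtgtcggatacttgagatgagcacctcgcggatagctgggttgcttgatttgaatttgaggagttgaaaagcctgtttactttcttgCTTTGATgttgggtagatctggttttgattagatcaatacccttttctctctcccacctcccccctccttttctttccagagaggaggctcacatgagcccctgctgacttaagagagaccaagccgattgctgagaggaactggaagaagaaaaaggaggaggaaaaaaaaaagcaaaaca
Nkd1: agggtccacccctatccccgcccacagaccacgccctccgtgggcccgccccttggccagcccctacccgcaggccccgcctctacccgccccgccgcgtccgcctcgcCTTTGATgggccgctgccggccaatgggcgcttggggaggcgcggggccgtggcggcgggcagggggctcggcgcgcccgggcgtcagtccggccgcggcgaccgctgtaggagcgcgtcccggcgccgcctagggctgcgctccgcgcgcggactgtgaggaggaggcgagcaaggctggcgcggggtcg
The first letter of the match was at position -4 from the start in Tcf7, -132 in Axin2 and -141 in Nkd1, with -1 the base just before the start. GC content was 62.7% in the Tcf7 window, 45.7% in that of Axin2 and 79.3% in that of Nkd1. A match of letters describes the sequence and was not tested as a binding site.

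Several probe sets were present for 19 of the 41 genes, and 11 of the 71 probe sets were called, beside 9.81% of all probe sets. Probe sets of 1 gene can read different transcript ends or isoforms, and the array annotation used here does not say which. Ctnnb1 was the only Wnt gene with probe sets called in opposite directions, which 0.508% of the 4525 genes with several probe sets were. Its brightest probe set read 3654, 6243 and 8717 units on Colony arrays and 6857, 7704 and 7730 on A16 arrays, with the groups overlapping (log2 fold change -0.22 ± 0.27 SE, adjusted p = 0.642). The second read 14198, 8709 and 6063 units on Colony arrays and 3463, 4006 and 4341 on A16 arrays and was called higher (1.03 ± 0.28 SE, adjusted p = 0.0377). The third read 409, 750 and 692 units on Colony arrays and 1362, 1299 and 1968 on A16 arrays and was called lower (-1.39 ± 0.22 SE, adjusted p = 0.00500). The fourth and dimmest differed by 0.45 without passing (adjusted p = 0.186). The 2 brightest probe sets of Ctnnb1 ordered the Colony arrays in opposite ways, with biological replicate 1 lowest in the first and highest in the second. No direction is therefore given for Ctnnb1.

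Tcf7l2 had 5 probe sets. Beside the brightest, which is given above, 2 were called higher, with log2 fold changes of 1.02 ± 0.19 (SE, adjusted p = 0.00977) and 1.74 ± 0.15 (SE, adjusted p = 0.000439). The second of these read 391, 264 and 294 units on Colony arrays and 79.2, 88.4 and 101 on A16 arrays, with no overlap. The other 2 read lower without passing (-0.48, adjusted p = 0.415, and -1.38, adjusted p = 0.0781), and in each A16 replicate 2 was far above the other A16 arrays, at 340 against 156 and 146 units and at 314 against 113 and 98.7 units. Of 3 Apc probe sets the brightest alone passed by its p-value, the others differed by 0.07 and -0.20, and the mean of the 3 did not pass (0.23, adjusted p = 0.267). The mean of the 5 Tcf7l2 probe sets did not pass either (0.30, adjusted p = 0.335). A second probe set of Tcf7l1 had nearly the same fold change as the first (-0.88 ± 0.33 SE) but an adjusted p of 0.115. For Dvl1 a second probe set differed by -0.69 (adjusted p = 0.168), with A16 replicate 2 at 929 units and the other A16 arrays at 457 and 460. No probe set passed by its p-value for the remaining genes with several (Dkk3, Lef1, Lrp5, Nkd1, Rspo3, Sfrp1, Sfrp2, Sfrp4, Wnt2, Wnt7a and Wnt11). Signs differed between the probe sets of Dkk3, Lef1 and Rspo3, each of them at 0.18 or less in size.

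**Figure D4:**
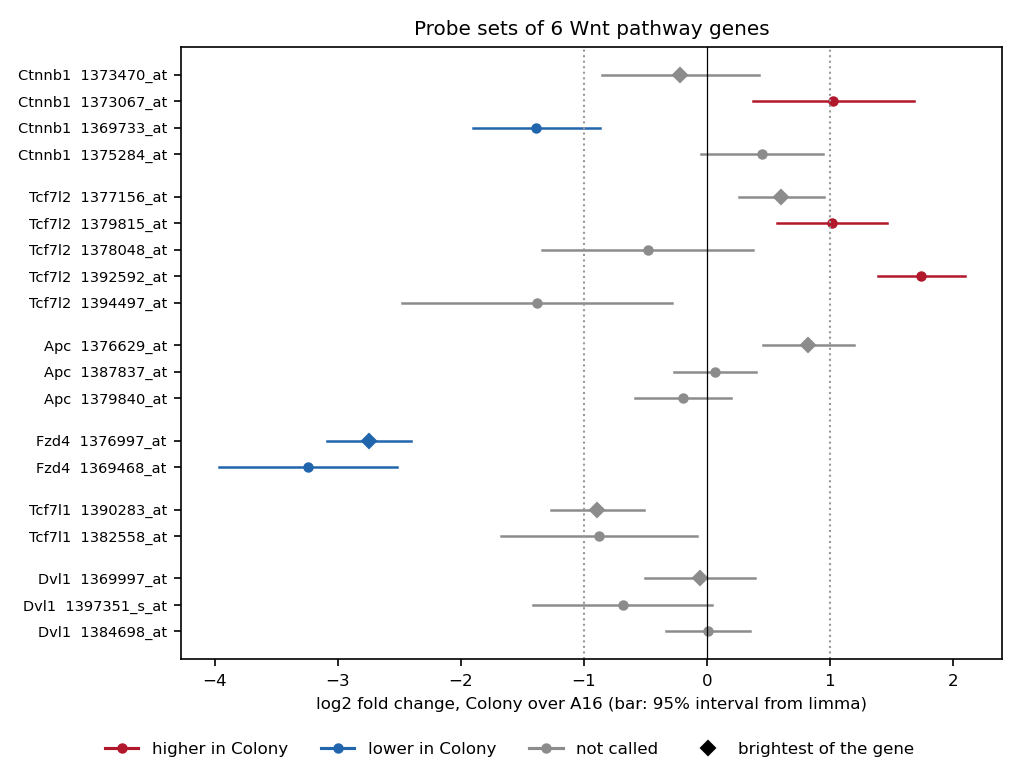
Log2 fold change of Colony over A16 (horizontal axis) for every probe set of 6 Wnt genes, with 95% intervals from limma, dotted lines at a fold change of 2 and a diamond on the brightest probe set of each gene. Ctnnb1 has 1 probe set called higher and 1 called lower, while both probe sets of Fzd4 lie below -2.

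The A16 array of biological replicate 2 was high for several of these genes. It read over 0.5 on the log2 scale above the mean of the other A16 arrays for 5 of the 41 genes, namely Kremen1 (1.06), Dvl2 (0.83), Axin2 (0.73), Tcf7 (0.62) and Lgr4 (0.53), against 3.64% of all genes, and it read as far below them for none (0.985% of all genes). Fzd2, Fzd4 and Wnt4 deviated by 0.23, 0.12 and 0.05 on that array. A cause of the deviation was not tested.

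Outside the 41 genes, 47 of 62 further genes of the pathway were measured, and 1 was higher and 3 were lower in Colony cells, with a median log2 fold change of 0.06. Over all genes 9.12% were called, so that the list as a whole stood near the background. Ptk7, a co-receptor of the pathway that lacks kinase activity, read 121, 96.7 and 83.2 units on Colony arrays, against 2506, 2732 and 2270 on A16 arrays. This was the widest gap in the list (log2 fold change -4.68 ± 0.17 SE, adjusted p = 1.76e-05). Wls, the carrier that brings Wnt proteins to the cell surface, read 761, 851 and 977 units on Colony arrays and 2048, 1865 and 1993 on A16 arrays (-1.15 ± 0.15 SE, adjusted p = 0.0022). Bcl9l, a co-activator of β-catenin, was also lower (-1.01 ± 0.13 SE, adjusted p = 0.0022), and Nlk, a kinase that acts on Tcf and Lef factors, was higher (1.06 ± 0.14 SE, adjusted p = 0.00288).

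Known targets of β-catenin and Tcf, many of which also answer to other signals, were split. The list held 46 symbols, a pair of them older names of Ccn4 and Ccn5, and 37 genes were measured, 4 of which are also among the 41. Of the 37, 5 were called higher and 5 lower, with a median log2 fold change of 0.01, beside 4.36% higher and 4.75% lower over all genes. The 6 calls of largest size included, on the higher side, the T-box factor Tbx3 (3.22 ± 0.14 SE) and the cell cycle gene Ccnd1 (1.46 ± 0.13). On the lower side they were the matricellular genes Ccn5 (-3.27 ± 0.17 SE) and Ccn4 (-2.42 ± 0.23), the prostaglandin synthase Ptgs2 (-2.17 ± 0.24) and endothelin Edn1 (-1.50 ± 0.20). Ccnd1 read 7205, 6743 and 7293 units on Colony arrays and 2450, 2837 and 2539 on A16 arrays. Ccn4 read 564, 493 and 843 units on Colony arrays and 3681, 3882 and 3350 on A16 arrays. For these and the other called targets the groups did not overlap.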

How the data were processed

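RNA of Colony and A16 cells was hybridised by the authors to GeneChip Rat 230 2.0 arrays, 3 per group, and scans were read with Gene Chip Operating Software 2.1. RMA and PLIER summaries, made by them in Avadis (versions: not given in the sources used), were deposited as linear intensity values. RMA values were put on a log2 scale without an offset.

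Groups came from the sample labels. Technical replicate 2 carries no biological number and was averaged with biological replicate 1. After 57 control probe sets were left out, 31042 were fitted in R 4.3.3 with limma 3.58.1 (lmFit, eBayes), with no filter and Benjamini-Hochberg adjustment over all; statmod 1.5.0 served the random block, and figures were drawn with Python 3.11.15. All adjusted p-values come from limma unless the methods' t-test is named. The call threshold (fold change over 2, adjusted p under 0.05) was met by 3045 probe sets (9.81%). Of the probe sets 20826 (67.1%) have 1 symbol, 436 several and 9780 none; the last 2 kinds name no gene. Array coordinates and detection calls were not used. The fit was tested on simulated data.

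The members and lists were chosen with earlier results of these data known. Every member with a probe set is named, with the 6 called genes of largest log2 fold change, or all where fewer, of each further Wnt list. Alternatives were PLIER, other uses of the technical arrays, a replicate block, other scalings, a filter on dim probe sets, other tests, and each replicate left out.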

Additional observations from a re-analysis of the deposited data

How the results depend on the processing

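Fzd2, Fzd4 and Wnt4 stayed called lower under every limma setting in which they were tested. Over 18 alternatives, 691 of 716 values of single genes stayed on their side of the call thresholds, 12 lost a call, 13 gained one and 0 called values changed sign. In 15 genes with no call and a log2 fold change of 0.25 or less in size, the sign changed 45 times, which was not counted as a reversal.

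Against 1 gene called higher and 5 lower, PLIER with 16 added gave 0 higher (Tcf7 at 0.97). Leaving out the probe sets under the median gave 0 higher and 3 lower, since Wnt4, Dvl2 and Tcf7 were then not tested. The methods' t-test gave 0 higher and 3 lower with no adjustment (2383 of all probe sets, against 3045 with limma), and 0 and 0 after Benjamini-Hochberg (0 of all probe sets). With no fold threshold 4 were higher and 9 lower, of 7056 probe sets. Lgr4 fell under the fold threshold with 6 separate arrays (-0.97), with the technical arrays averaged with replicate 2 (-0.93) and with quantile normalization (-0.98). Lrp6 passed it in 7 settings, reaching -1.20 without Colony replicate 2, and Fzd5 in both PLIER settings (-1.10 and -1.37).

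Leaving out 1 replicate at a time left 1 culture in that group, assumed to vary like the other group, and gave 1 to 2 genes higher, 3 to 8 lower and 2794 to 3637 probe sets. The 2 higher (Tcf7 and Axin2) and the 3 lower came without A16 replicate 2, where Lgr4 (-0.80) and Dvl2 (-0.95) were lost. The 8 lower came without A16 replicate 1, where Kremen1 (-1.30), Tcf7l1 (-1.03) and Lrp6 (-1.02) were gained. Tcf7l1 also passed without Colony replicate 1 (-1.01), where Ctnnb1 was at 0.22.

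Same-numbered cultures did not deviate together (correlation -0.15), so the numbers were not shown to pair them. With a replicate block 3121 probe sets, 1 Wnt gene higher and 5 lower were called. With crossed numbers, an alternative added after the data were seen, 3135 probe sets, 1 higher and 5 lower were called. The 2 cultures a group limit what these arrays can show, and for the 16 Wnt genes under the median on every array no background level was available.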

Other observations

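Heparan sulphate proteoglycans and their editing enzymes, which hold Wnt proteins near the cell surface, were measured for 11 of 12 genes. Sulf1 and Sulf2, the extracellular sulfatases that trim heparan sulphate, were lower in Colony cells and were the only 2 called. Sulf1 read 89.5, 68.9 and 79.3 RMA units on Colony arrays and 372, 443 and 394 on A16 arrays (log2 fold change -2.34 ± 0.13 SE, adjusted p = 6.44e-05, limma). Sulf2 read 221, 191 and 204 units on Colony arrays and 609, 649 and 544 on A16 arrays (-1.51 ± 0.14 SE, adjusted p = 0.000561). The other 9 genes were not called, and the median log2 fold change of the list was -0.40. Among them Sdc1 passed by its p-value alone, upwards (0.67, adjusted p = 0.0100). Sdc2 (-0.54, adjusted p = 0.0318) and Gpc4 (-0.44, adjusted p = 0.0498) passed by it downwards. With the p-value alone 12.9% of all genes were higher and 10.8% lower. Of all genes 4.75% were called lower.

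In the branch of the pathway that works through planar polarity and calcium, 35 of 36 genes were measured, and 2 were called higher and 1 lower, a share near the 9.12% called over all genes. Prickle1 and Prickle2, cytoplasmic proteins of planar polarity, were both higher. Prickle1 read 661, 711 and 801 units on Colony arrays and 251, 255 and 225 on A16 arrays (1.64 ± 0.15 SE, adjusted p = 0.000533). Prickle2 read 280, 234 and 215 units on Colony arrays and 50.7, 43.2 and 48.1 on A16 arrays (2.31 ± 0.14 SE, adjusted p = 0.000114). Camk2g, a subunit of the calcium and calmodulin kinase, was lower (-1.31 ± 0.15 SE, adjusted p = 0.00155). The median over the 35 genes was 0.05, as over all genes.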
